A study of Mus musculus with 6 samples.

Results

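The genes described here encode 9 transcription factors of epithelium and keratinocytes, Trp63, Grhl1, Grhl2, Grhl3, Ovol1, Klf4, Klf5, Ehf and Elf3. They were taken by symbol from a table of 24054 mouse genes, and all 9 were in it and passed the filter on low counts. RNA-seq of whole thymus covered 3 libraries from K5-rtTA:TetO-RANKL mice (RANKL) and 3 libraries from control mice. In the RANKL mice, rtTA, an activator that works only with doxycycline, is made in cells that use the keratin 5 promoter, and it turns on a TetO-controlled transgene for the cytokine RANKL. Both groups received doxycycline by food and water. The controls are described as monogenic, and which of the transgenes they carried is not given in the labels. One text gives the start at 8 weeks of age and a course of 1 week, another a start at 9 weeks and a course of 2 weeks.

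Medullary thymic epithelium shares much of its regulation with stratified epithelium such as epidermis. Trp63 encodes p63, which keeps up the basal, regenerating layer of stratified epithelium and is needed for a normal thymus. Grainyhead-like factors (Grhl1 to Grhl3) control junction and barrier genes, the zinc finger factor Ovol1 works in the step from dividing to differentiating keratinocyte, Klf4 in barrier formation, Klf5 in dividing basal and crypt cells, and Ehf and Elf3 are ETS factors restricted largely to epithelium. RANKL is known to act on medullary epithelium and on microfold cells of the gut through its receptor RANK.

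All 9 transcripts were higher in RANKL than in control thymus. Log2 fold changes ran from 1.43 for Trp63 to 4.96 for Grhl3 with a median of 3.56, while the median over all 16096 tested genes was -0.02. All 9 passed the test (edgeR quasi-likelihood test, adjusted p from 5.19e-06 to 0.00022), where 33.8% of tested genes were called higher. In all 9 every RANKL library lay above every control library, as it did for 36.1% of tested genes. At least 8-fold increases were called in 9.23% of tested genes. In whole tissue, more cells of a type, more RNA per cell and less RNA from other cells cannot be told apart. Levels are relative to each library's reads. Double-positive thymocyte markers were called lower in 10 of 10, at a median log2 fold change of -4.76, where 29.6% of tested genes were. The part of that fall in the rise of the 9 factors was not tested. The labels do not state whether each library is a different animal, so the p-values speak of the spread among these libraries and no more.

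Trp63 (Entrez gene 22061, chr16:25683763-25892102, plus strand, GRCm38) had 128.7, 145.0 and 125.6 CPM (read counts scaled to library size and composition) in RANKL replicates 1, 2 and 3, and 51.0, 54.1 and 43.4 CPM in control replicates 1, 2 and 3. The groups did not overlap, and both were tight, with means of 133.1 ± 10.4 CPM in RANKL and 49.5 ± 5.50 CPM in control (SD, n = 3 each). The log2 fold change was 1.43 ± 0.16 (SE; edgeR adjusted p = 5.45e-05), or 2.69-fold, the smallest of the 9. Of tested genes 23.5% had a larger log2 fold change than Trp63. The gene has alternative promoters that make p63 proteins with and without an activation domain, which counts per gene do not separate.

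All 3 Grainyhead-like genes rose, with fold changes from 3.55 for Grhl2 to 31.1 for Grhl3. Grhl3 (Entrez gene 230824, chr4:135541888-135573630, minus strand), which epidermal barrier formation requires, had 38.4, 58.2 and 31.5 CPM in RANKL replicates 1, 2 and 3, against 1.79, 1.13 and 1.19 CPM in the control replicates. Control libraries held only 34, 22 and 25 reads of it, and RANKL libraries 714, 1432 and 669. Its log2 fold change of 4.96 ± 0.32 (edgeR adjusted p = 5.51e-06), or 31.1-fold, was the largest of the 9, and 2.13% of tested genes had a larger one.

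Grhl1 (Entrez gene 195733, chr12:24572283-24617391, plus strand), a regulator of desmosomes and hair anchorage, had 72.0, 121.1 and 72.6 CPM in RANKL against 9.54, 9.48 and 5.35 CPM in control. RANKL replicate 2 stood well above the other RANKL libraries, and the groups did not overlap. The log2 fold change was 3.45 ± 0.30 (edgeR adjusted p = 1.69e-05), or 10.9-fold. Grhl2 (Entrez gene 252973, chr15:37233036-37363569, plus strand), which drives E-cadherin and claudin genes, had 42.0, 44.2 and 29.2 CPM in RANKL against 11.8, 13.1 and 7.65 CPM in control. It rose by 1.83 ± 0.26 on the log2 scale (edgeR adjusted p = 0.00022), or 3.55-fold, the smallest rise after that of Trp63.

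Ovol1 (Entrez gene 18426, chr19:5549136-5560646, minus strand) had 25.2, 31.6 and 20.8 CPM in RANKL against 2.16, 2.37 and 1.72 CPM in control. It rose 12.4-fold, a log2 fold change of 3.63 ± 0.27 (edgeR adjusted p = 8.3e-06), and the control libraries stayed within 36 to 46 reads. GENCODE places genes of the opposite strand over exons of Grhl2, Ovol1 and Elf3. None of these is in the deposited table, and the strand setting used in counting is not known here, so reads of such genes may be included in those counts.

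Klf4 (Entrez gene 16600, chr4:55527143-55532466, minus strand) had 101.5, 145.2 and 74.0 CPM in RANKL against 15.6, 12.2 and 9.13 CPM in control. RANKL replicate 2 was the highest and replicate 3 the lowest, and the lowest still lay well above all controls. Its log2 fold change was 3.12 ± 0.29 (edgeR adjusted p = 2.3e-05), or 8.70-fold. Klf5 (Entrez gene 12224, chr14:99298691-99315036, plus strand) was the least abundant per length in both groups, with 15.1, 20.3 and 11.1 CPM in RANKL against 2.16, 0.876 and 0.908 CPM in control. Control replicate 1 held 41 reads of it and the other control libraries 17 and 19. Its log2 fold change of 3.56 ± 0.42 (edgeR adjusted p = 7.91e-05), or 11.8-fold, had the widest error of the 9.

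By fold change the ETS factors came next after Grhl3. Elf3 (Entrez gene 13710, chr1:135253575-135258568, minus strand), also called ESE-1 and known for roles in intestinal and inflamed epithelium, had 128.3, 163.3 and 95.9 CPM in RANKL against 9.44, 6.96 and 6.26 CPM in control. It rose 17.1-fold, a log2 fold change of 4.10 ± 0.26 (edgeR adjusted p = 5.19e-06). Ehf (Entrez gene 13661, chr2:103263433-103303278, minus strand), a relative known from keratinocytes and glandular epithelium, had 158.8, 159.7 and 133.7 CPM in RANKL against 16.03, 11.1 and 7.74 CPM in control. The RANKL libraries lay close together, the controls were more spread, and the groups did not overlap. Ehf rose by a log2 fold change of 3.70 ± 0.26 (edgeR adjusted p = 7.67e-06).

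**Figure D1:**
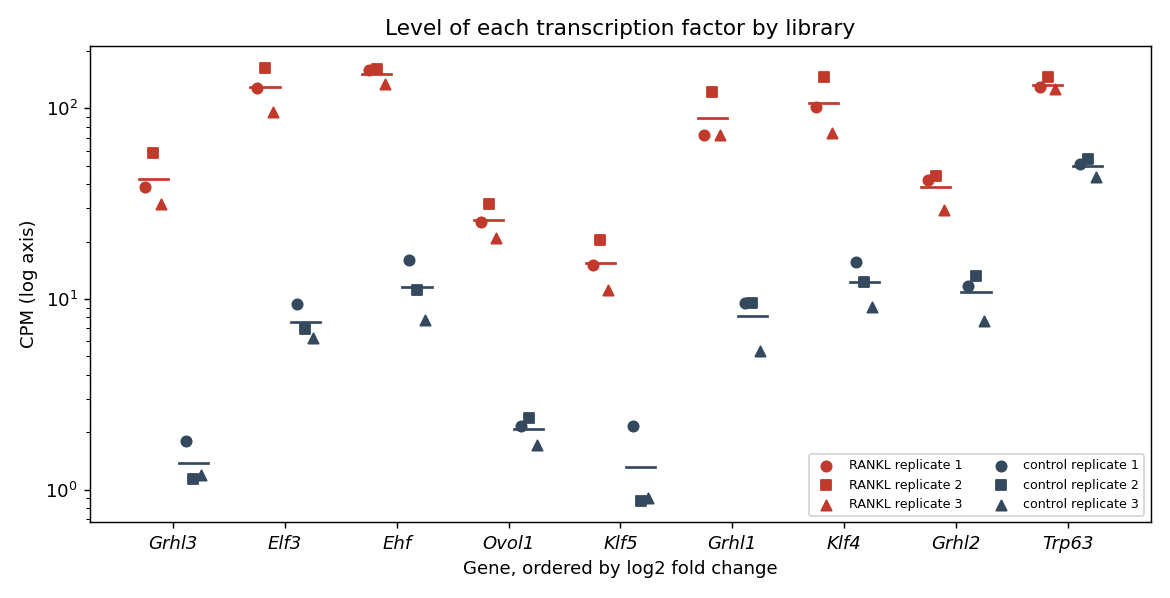
CPM on a log axis for each of the 9 genes, with 1 point per library, RANKL in red on the left and control in dark grey on the right, and lines at the group means. All RANKL points lie above all control points of the same gene, with the widest gap for Grhl3 and the narrowest for Trp63.

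The libraries of a group kept a similar order across the genes. RANKL replicate 2 was the highest RANKL library for 9 of 9 genes and RANKL replicate 3 the lowest for 8, the exception being Grhl1. Control replicate 3 was the lowest control library for 7 of 9. Tnfsf11, which encodes RANKL and whose counts do not separate the transgene from the mouse's own gene, had 3334, 4812 and 2390 CPM in RANKL replicates 1, 2 and 3, against 6.01, 6.34 and 8.89 CPM in the control replicates. RANKL replicate 2 was also the highest for the induced gene, and replicate 3 the lowest. The share of all tested genes with this order was not counted, and a relation to the level of Tnfsf11 was not tested. The CPM of the 9 genes summed to 710, 889 and 594 in the RANKL libraries and to 119.5, 111.3 and 83.3 in the control libraries.

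The promoters of Grhl3, the gene with the largest rise, and of Klf4 are shown because they are the windows of these genes that lie wholly upstream of the annotated start. RefSeq promoter windows were matched for 4 of the 9 genes, the others being Grhl1 and Elf3, and no sequence is shown for Trp63, Grhl2, Ovol1, Klf5 and Ehf. Each is the 250 bases before the start, 5′ to 3′ on the minus strand, on which both genes lie, in GRCm38.p6, chr4:135573633-135573882 for Grhl3 and chr4:55532476-55532725 for Klf4. Capitals mark matches, on either strand, to AACNGGTT (Grainyhead-like factors), CNGGAAG (ETS factors) or CCNCNCCC (KLF factors).
Grhl3: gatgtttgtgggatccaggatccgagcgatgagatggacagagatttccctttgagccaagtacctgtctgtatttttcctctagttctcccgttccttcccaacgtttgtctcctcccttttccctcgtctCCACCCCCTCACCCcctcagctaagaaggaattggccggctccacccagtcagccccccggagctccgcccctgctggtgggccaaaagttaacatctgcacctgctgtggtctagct
Klf4: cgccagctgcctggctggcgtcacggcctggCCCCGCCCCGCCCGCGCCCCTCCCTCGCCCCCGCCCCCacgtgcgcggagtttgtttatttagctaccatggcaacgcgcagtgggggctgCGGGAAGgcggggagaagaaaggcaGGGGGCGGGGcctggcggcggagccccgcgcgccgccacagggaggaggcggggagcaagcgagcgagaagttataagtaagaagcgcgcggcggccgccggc
The Grhl3 window held 2 KLF matches that overlap and none of the other motifs. The Klf4 window held 9 KLF matches, several of them overlapping, and 1 ETS match. Of 32851 mouse promoter windows of this length 45.9% held the KLF motif, 26.6% the ETS motif and 1.79% the Grainyhead-like motif, which neither window held.

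Set against merged exon length, the order of the factors differed between groups. Levels were divided by the merged exon length of GENCODE M21, which gives CPM per kilobase. That length pools all annotated transcripts, 8 for Trp63 and for Ehf and 1 for Grhl3, and can exceed that of the transcripts present. The order between genes depends on it. In RANKL thymus Elf3 was the highest at 58.3 ± 15.2 CPM per kilobase, followed by Klf4 at 35.1 ± 11.8 and Ehf at 27.0 ± 2.64 (SD, n = 3 each), and the ranges of neighbours among these overlapped. Grhl1, Trp63 and Grhl3 followed at 15.98, 15.9 and 15.3 CPM per kilobase and also overlapped, below Ehf in every library. Ovol1 at 7.41, Grhl2 at 4.47 and Klf5 at 2.98 CPM per kilobase closed the order, with Grhl2 and Klf5 overlapping.

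In control thymus Trp63 was the highest at 5.90 ± 0.66 CPM per kilobase (SD, n = 3), above Klf4 at 4.03 ± 1.05 with no overlap. Elf3, Ehf, Grhl1 and Grhl2 followed at 3.41, 2.08, 1.47 and 1.26 CPM per kilobase, each overlapping its neighbour. Ovol1, Grhl3 and Klf5 were below 1 at 0.598, 0.493 and 0.253 CPM per kilobase. Trp63 made up 7.58% to 10.5% of the summed level per length of the 9 genes in RANKL libraries and 26.4% to 33.7% in control libraries. Elf3 made up 30.4% to 32.7% in RANKL libraries and 15.6% to 18.4% in control libraries, and Grhl3 7.80% to 9.16% in RANKL libraries and 2.03% to 2.79% in control libraries.

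**Figure D2:**
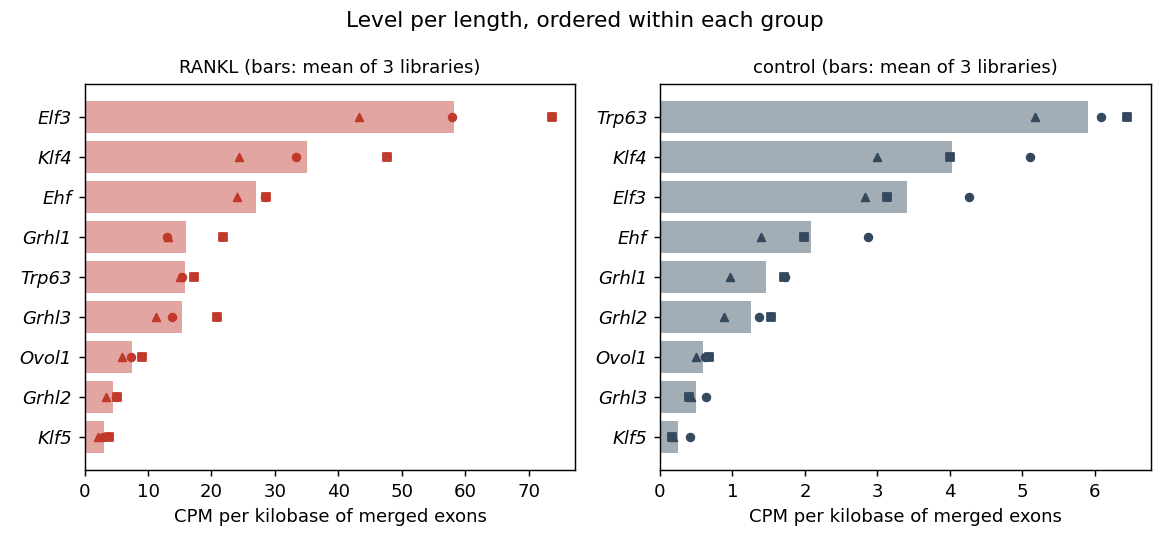
CPM per kilobase of merged exons for the 9 genes in RANKL (left panel) and control libraries (right panel), each ordered by its mean, with bars at the mean of 3 libraries, points for single libraries and separate linear axes. Elf3 leads in RANKL at 58.3 and Trp63 leads in control at 5.90.

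Relatives were also compared as ratios within each library, where the lengths of the genes cancel in the difference between groups. The log2 ratio of Grhl3 to Grhl2 was -0.13, 0.39 and 0.11 in RANKL replicates 1, 2 and 3, against -2.42, -3.06 and -2.27 in the control replicates. The difference between the group means was 2.71, or 6.53-fold. The difference was 1.57 for Grhl1 to Grhl2, 1.13 for Grhl3 to Grhl1 and 1.92 for Ovol1 to Trp63 on the log2 scale, with all RANKL libraries above all control libraries. The ratio of Klf4 to Klf5 differed by -0.12 and that of Ehf to Elf3 by -0.30, both with overlapping groups. The exact two-sided permutation p was 0.1 for the 4 ratios without overlap, the smallest that 3 against 3 libraries allow, 0.8 for Klf4 to Klf5 and 0.3 for Ehf to Elf3. Adjusted over the 6 ratios by the Benjamini-Hochberg method the smallest p was 0.15 (exact permutation test), so none could pass a threshold of 0.05.

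A set of 10 general epithelial transcripts (Epcam, Cdh1, Esrp1, Esrp2, Rab25, Ap1m2, Spint1, Spint2, Krt8 and Krt18) was itself higher in RANKL. Its mean log2(CPM + 0.5) was 7.66, 7.73 and 7.48 in RANKL replicates 1, 2 and 3, against 5.81, 5.60 and 5.48 in the control replicates, a difference of 1.99 or 3.98-fold. Of the 10, 8 were called higher, where 33.8% of all tested genes were. Krt18 and Esrp2 were not called, at log2 fold changes of 0.32 and 0.48, Krt18 being called with upper-quartile scaling (edgeR adjusted p = 0.0474). Krt8 and Spint2 were called at only 0.52 and 0.565, and the others rose by 2.25, for Ap1m2, to 4.07, for Rab25. The set is thus not uniform, and its mean depends on which transcripts it holds. With single libraries left out 6 to 8 of the set were called higher.

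Relative to that set, 7 of the 9 factors were higher in every RANKL library than in every control library, as were 6.73% of tested genes. The log2 difference was 2.51 for Grhl3, 2.00 for Elf3, 1.70 for Ehf, 1.37 for Grhl1, 1.35 for Ovol1, 1.18 for Klf5 and 1.05 for Klf4. Trp63 was lower relative to the set, at log2 ratios of -0.64, -0.55 and -0.50 in RANKL replicates 1, 2 and 3 against -0.13, 0.17 and -0.02 in the control replicates, a difference of -0.57. Of tested genes 79.9% were lower in this sense without overlap. Grhl2 differed by -0.20 with overlapping groups (exact permutation p = 0.4). For the other 8 the exact two-sided permutation p was 0.1, the smallest possible, or 0.113 adjusted over the 9 genes, and no call can be made.

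The choice of the epithelial measure mattered. Set against Epcam alone, a transcript that rose 11.3-fold, Grhl3 was higher without overlap (1.02) and Trp63 and Grhl2 were lower without overlap (-2.06 and -1.69). Elf3 and Ehf kept their sign, at 0.52 and 0.21, but their groups overlapped. The signs of Grhl1, Ovol1, Klf4 and Klf5 turned, to -0.11, -0.14, -0.43 and -0.31 with overlapping groups. Set against Krt5 alone, a basal keratin whose promoter drives the transgene system, Grhl1, Grhl3, Ovol1, Ehf and Elf3 were higher and Trp63 and Grhl2 lower without overlap.

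**Figure D3:**
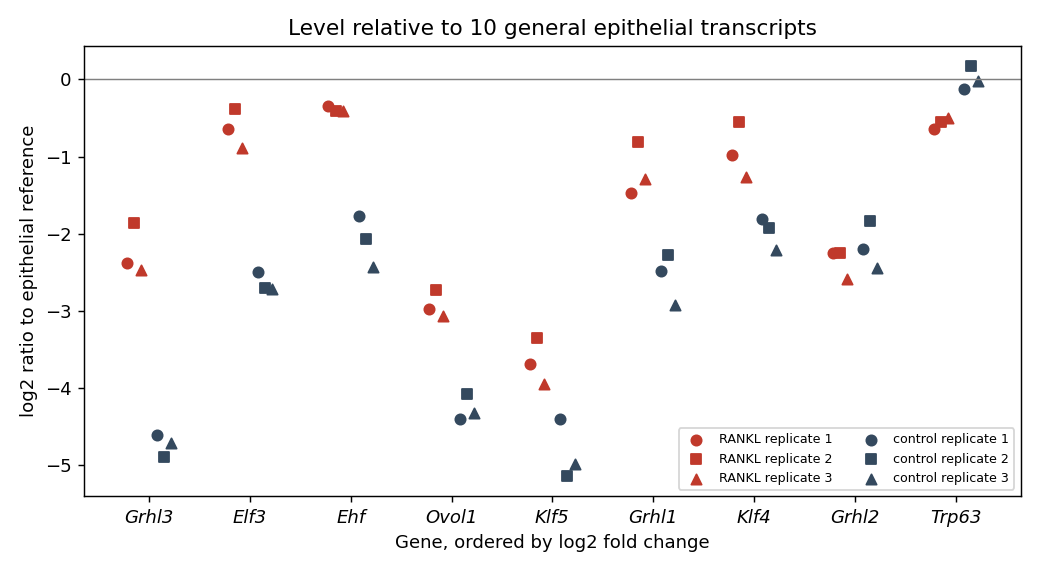
Log2 ratio of each factor to the mean of 10 general epithelial transcripts, with 1 point per library, RANKL in red on the left and control in dark grey on the right. Grhl3 shows the largest upward difference (2.51), Grhl2 overlaps, and Trp63 lies lower in all RANKL libraries.

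Other epithelial transcription factors were described with a list of 32 genes. Of 31 tested, 30 were called higher, where 33.8% of all tested genes were. Their median log2 fold change was 2.68, and Barx2 was not called, at 0.68. Foxn1 was called higher at 0.86. Its call was lost without control replicate 2 (edgeR adjusted p = 0.0769) or control replicate 3 (edgeR adjusted p = 0.0664). With single libraries left out 28 to 30 genes of the list were called higher. Foxa1, a pioneer factor of glandular epithelium, had 22.5 ± 2.56 CPM in RANKL and 0.542 ± 0.121 CPM in control (SD, n = 3 each), a log2 fold change of 5.36 ± 0.29 (edgeR adjusted p = 3.64e-06). Tfap2c, an AP-2 factor of epidermis, rose by 3.92 ± 0.26 and Foxq1 by 3.21 ± 0.25. Sox2 did not pass the filter on low counts.

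Relatives of the 9 by protein family did not move together. Of 24 tested, 9 were called higher, 5 lower and 10 neither, with a median of -0.04. Among all tested genes 33.8% were called higher and 29.6% lower, so the split was near that of tested genes at large. The highest were the epithelial ETS factors Spdef, at 16.4 ± 9.54 CPM in RANKL and 0.288 ± 0.186 CPM in control, and Elf5, at 12.7 ± 4.28 CPM in RANKL and 0.242 ± 0.293 CPM in control (SD, n = 3 each). Their log2 fold changes were 5.81 ± 0.58 and 5.70 ± 0.63. Control libraries held 9, 2 and 6 reads of Spdef and 11, 1 and 2 reads of Elf5, and without control replicate 1 the value for Elf5 was 7.29. Klf6, a widely expressed KLF factor, rose by 1.18 ± 0.15 and Ovol2, the relative of Ovol1, by 2.27 ± 0.44. Spdef, Elf5 and Ovol2 are also in the list of other epithelial transcription factors and count in both.

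The relatives that fell were Elf1, Elf2, Klf7, Klf13 and Klf15. Elf1, an ETS factor prominent in lymphoid cells, had 112.7 ± 10.4 CPM in RANKL and 322.5 ± 35.2 CPM in control, a log2 fold change of -1.52 ± 0.16, and Klf13, also used by T cells, had 123.8 ± 20.8 CPM in RANKL and 384 ± 77.1 CPM in control, a log2 fold change of -1.63 ± 0.20. The values were -0.87 for Elf2, -1.53 for Klf15 and -1.03 for Klf7. The call of Klf7 was lost without RANKL replicate 3 (edgeR adjusted p = 0.0729) or without control replicate 1 (edgeR adjusted p = 0.0705). Beside these decreases, markers of double-positive thymocytes fell in 10 of 10, where 29.6% of all tested genes were called lower. Their summed level was 197.4 to 894 CPM in RANKL libraries and 9526 to 10551 CPM in control libraries. The part of these cells in the decreases was not tested.

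Genes of processes in which the factors are known to work were described by 3 lists, to be read beside the 33.8% of all tested genes called higher. Whether a factor acts on a listed gene was not tested. Of 20 genes of the p63 programme, which covers basal keratins and basement membrane adhesion, 18 were called higher with a median of 2.55. Krt15, a basal keratin, rose by 4.52 ± 0.32, Col17a1, a hemidesmosome collagen, by 3.84 ± 0.27 and Krt14 by 3.35 ± 0.25. Itga6 and Dst were not called, at 0.31 and -0.31, and Dst was called lower without control replicate 3, at -0.61 (edgeR adjusted p = 0.0264).

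Of 20 epithelial adhesion and sealing genes, among them genes under Grainyhead-like control, 19 were called higher with a median of 2.97. This list shares genes with the set of general epithelial transcripts, all of which but Krt8 and Krt18 are in it. The tight junction genes Cldn7 and Cldn4 rose by 4.72 ± 0.28 and 4.57 ± 0.25 and Epcam by 3.50 ± 0.16, while Esrp2, a splicing regulator, was not called at 0.48. Of 19 late keratinocyte differentiation genes in the table all were called higher, with a median of 4.30. They included Cnfn at 7.49 ± 0.47, Krtdap at 4.30 ± 0.34 and Sbsn at 3.97 ± 0.33. The envelope protein Sprr1a reached 6.99 ± 0.53, and 6.31 when RANKL replicate 2 was left out.

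**Figure D4:**
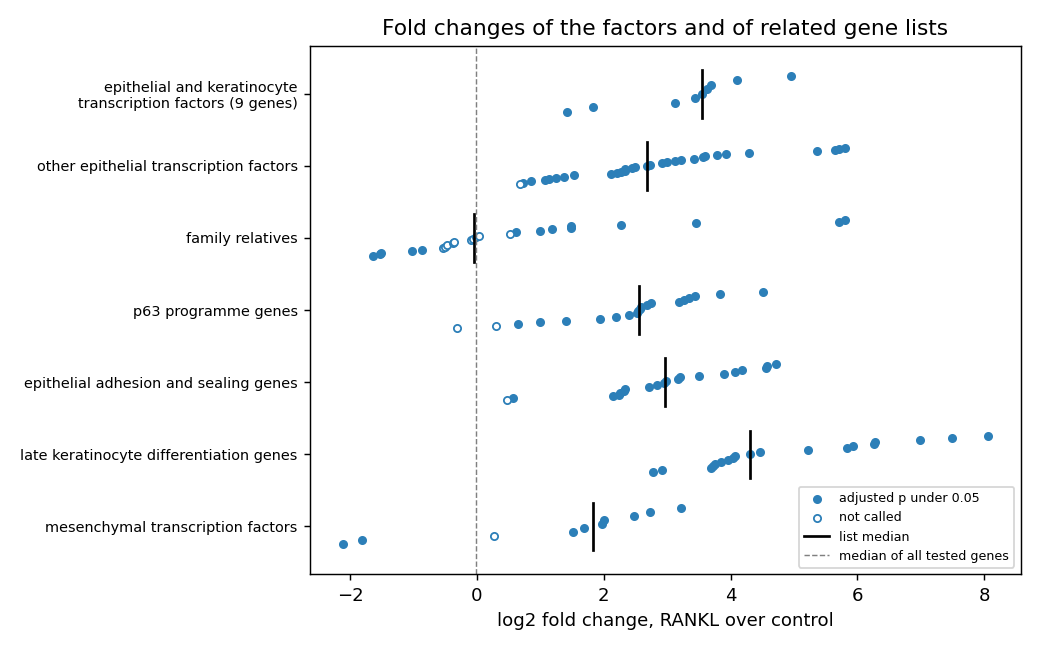
Log2 fold changes, RANKL over control, of the tested genes of 7 lists, with filled points for genes called at an adjusted p under 0.05, open points for those not called, black bars at list medians and a dashed line at the median of all tested genes. The 9 factors have a median of 3.56, late keratinocyte differentiation genes 4.30 and relatives by protein family -0.04.

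Mesenchymal transcription factors, several of which repress epithelial genes and are opposed by Ovol1 and Grhl2 in other settings, did not move as one. Of 10, 7 were called higher and 2 lower, where 33.8% of all tested genes were called higher and 29.6% lower. Zeb1 had 25.03, 27.7 and 36.1 CPM in RANKL replicates 1, 2 and 3, against 142.8, 132.6 and 110.3 CPM in the control replicates, a log2 fold change of -2.12 ± 0.19 (edgeR adjusted p = 1.99e-05). It is also expressed by thymocytes, whose markers fell as given above, and their part in this decrease was not tested. Snai3 fell as well, at -1.81, whereas its relative Snai1 rose by 2.74 ± 0.34, Foxc1 by 2.47 ± 0.25, Zeb2 by 2.01 ± 0.27 and Prrx1 by 1.97 ± 0.19. Twist2 was not called, at 0.26.

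Markers of other cells that may hold some of these transcripts also moved, where 33.8% of all tested genes were called higher. Klf4 is used by monocytes and endothelium, and Klf5 by vascular and stromal cells, besides epithelium. Macrophage and monocyte markers rose in 10 of 10, with a summed level of 1771 to 2272 CPM in RANKL libraries and 543 to 723 CPM in control libraries. Endothelial markers rose in 7 of 10, with 442 to 540 CPM in RANKL libraries and 259 to 339 CPM in control libraries, and Pecam1, Tek and Cldn5 were not called, at -0.09, 0.65 and 0.70. Tek was called without RANKL replicate 3 (edgeR adjusted p = 0.0344) or control replicate 1 (edgeR adjusted p = 0.0478). Fibroblast markers rose in 9 of 10, with 4177 to 8007 CPM in RANKL libraries and 498 to 606 CPM in control libraries. Collagen genes made up most of that sum in RANKL libraries, and the median log2 fold change of the list was 2.01. Dpt was the one not called, at 0.48, and was called without RANKL replicate 2 (edgeR adjusted p = 0.0173). Neutrophil markers rose in 9 of 9, with 2844 to 5783 CPM in RANKL libraries and 19.0 to 54.0 CPM in control libraries. With single libraries left out, 9 to 10 macrophage and monocyte markers and 5 to 7 endothelial markers were called higher. For fibroblast markers the count was 8 to 10 and for neutrophil markers 8 to 9. No marker of these lists was at 0 in any library, and the part of such cells in the rise of the 9 factors was not tested. Among markers of parathyroid, a gland next to or within the thymus, Casr and Chga rose by 3.15 ± 0.52 and 2.15 ± 0.43, Pth was not called at -0.37, and Gcm2 was below the filter.

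The genes whose pattern over the 6 libraries was most like the mean pattern of the 9 factors were Cdh1, Sdc1, P4ha2, Bcar1 and Ak1. Likeness was the Euclidean distance between log2(CPM + 0.5) values centred on their mean over libraries, over 13369 genes. These had a mean of at least 1 on that scale, and the 9 factors, predicted genes and names ending in Rik were left out. Values were not scaled, so the distance also reflects the size of the change. Log2 fold changes of the nearest genes ran from 3.04 for Bcar1 to 3.26 for Ak1. Cdh1, E-cadherin, was nearest at 0.130, with 663 ± 130 CPM in RANKL and 73.3 ± 16.6 CPM in control (SD, n = 3 each), followed by the syndecan Sdc1 at 0.132. The others lay at 0.235 to 0.266. Of the factors themselves Klf4 lay nearest to the common pattern at 0.272 and Trp63 farthest at 2.16.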

How the data were processed

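Stranded mRNA libraries were made from 250 ng of total RNA per thymus sample, per the labels' protocols. The authors deposited a table of raw read counts per gene and library. STAR and mm10 are named in the submitters' processing notes; the STAR version, the counter, its strand setting and the annotation used were not found in the labels or file. Library totals ran from 18254870 to 25357060 counts, and 3 reads were 0.122 to 0.162 CPM.

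Genes kept by filterByExpr (16096) were scaled by TMM and tested with edgeR 4.0.16 (robust quasi-likelihood test, two-sided, R 4.3.3), with Benjamini-Hochberg adjustment over all of them and a threshold of 0.05. Standard errors were derived from the F statistic. Ratios used a pseudocount of 0.5 CPM and exact permutation tests over libraries. The members and lists were chosen with earlier results of these data known. All 9 members and the nearest 5 genes by pattern were named. Of each list, up to 4 called genes per direction with the smallest p were named. Genes not called or lower were also named where a list had 5 or fewer. Called thymocyte, endothelial, macrophage and monocyte, fibroblast and neutrophil markers were an exception, given as counts and sums. Sox2, Gcm2, Foxn1, Krt8 and Spint2 were named after their values were seen. Results for 3 further genes that the rule takes are not reported here. Libraries of a group differed by more than sampling noise (chi-square per degree of freedom 31.7 to 67.9). Replicates were numbered in accession order. The tests were checked on simulated counts. Coordinates are from GENCODE M21 (GRCm38). Alternatives used limma 3.58.1 and DESeq2 1.42.0.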

Additional observations from a re-analysis of the deposited data

How the results depend on the processing

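The log2 fold changes of all 9 factors kept their direction and their call under all 16 alternatives, which were RLE, upper-quartile and no composition scaling, no filter, a filter of 1 CPM in 3 libraries, no robust estimation, DESeq2, limma-voom, a block by title number, a threshold of 0.01 and each library left out. Klf5 moved most, from 3.31 without control replicate 2 to 4.09 without control replicate 1. Upper-quartile scaling put the median of all tested genes at 0.08 in place of -0.02.

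With no filter 8 relatives by protein family were called lower. With single libraries left out 7 to 8 relatives were called higher, against 9 in the main fit, and 4 to 7 were called lower. Leaving out single libraries gave 0 to 1 p63 programme genes called lower. Relative to Epcam alone, 1 factor was higher and 2 were lower without overlap, and the difference was -0.11 for Grhl1, -0.14 for Ovol1, -0.43 for Klf4 and -0.31 for Klf5. Relative to Krt5 alone 2 were lower. With single libraries left out 1 to 2 factors were lower relative to the epithelial set, the ratio of Klf4 to Klf5 differed by -0.25 to 0.053, and 0 to 1 ratios between relatives were lower without overlap. The cause of these changes was not tested. No paired analysis was possible because the labels give no replicate numbers. The block by title number groups libraries by a number whose meaning the labels do not state, and control replicate 2 stands alone in its range. With it 5236 genes were called higher and 4557 lower, and Grhl2 had its highest log2 fold change of any alternative, 2.08. With 3 libraries per group exact tests could not go below 0.1.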
